A study of Mus musculus with 13 samples.

Results

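R-loops at the ends of protein-coding genes were described from DRIP-seq peak lists of mouse N2a neuroblastoma cells. Peaks of 9 untreated libraries were merged into 69497 regions, and 1666 of them were selected as gene-end regions. A selected region was under 5000 bases wide and was called (overlapped by a peak) in 2 to 8 of the 9 libraries. Its midpoint lay within 1 kb of the 3′ end of a protein-coding gene and more than 1 kb from every annotated transcript start. Distances were taken from the midpoint, so an edge of a region could lie nearer to a start. The same width and number of calls left 30478 variable regions in all. Members were thus chosen by peak calls of these same libraries, so their number of calls describes the choice and is no finding.

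All libraries came from the N2a line, transfected with a siRNA, and the groups differed in its target: a scramble control (siScramble), DDX1 (siDDX1), a putative RNA helicase, or EXOSC3 (siEXOSC3), a structural subunit of the RNA exosome. Each group had 3 untreated libraries and 1 library from DNA digested with RNase H, which destroys the RNA of RNA-DNA hybrids. A siRNA lowers its target and does not remove it, and nothing in the peak lists measures how far either protein fell. In 12 of 12 lists the peak names carry another treatment than the sample title. Lists titled siScramble held peaks named siDDX1, lists titled siDDX1 held peaks named siEXOSC3, and lists titled siEXOSC3 held peaks named siScramble. Groups are named by title throughout, so any direction between groups rests on the titles being right.

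An R-loop forms when RNA pairs with its DNA template and leaves the other DNA strand single. At gene ends, RNA polymerase II runs past the cleavage and polyadenylation site before it is released, and R-loops over G-rich sequence there are known to slow the polymerase. The helicase senataxin unwinds such hybrids so that the exonuclease XRN2 can degrade the downstream RNA. The RNA exosome degrades RNA from its 3′ end, including faulty and unstable transcripts in the nucleus.

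The sequence around the ends is shown for members described later, most of them missing from a whole group or called in 8 libraries and Syp from the neuronal genes, since cleavage signals and G runs are the elements by which gene ends are usually read. All positions are on mm9, and all sequences are given 5′ to 3′ on the strand of the gene. The first set gives the last 30 bases of the annotated gene, with the polyadenylation signal AATAAA in capitals. It is a selection of ends that hold this signal in those bases, and those of Gigyf2, Mtap1b and Usp22 hold it too. Of the other members described later whose end sequence was read, Adora2a, Rprd2, Kdelc1, Rps28, Irs2, Exosc5, Hnrnpd and Snrpd2 hold neither AATAAA nor ATTAAA there. Ldb1 and Dnaja1 hold ATTAAA.

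Crip1, chr12:114392059-114392088, plus strand: ctcagtgcctttAATAAAcctgatctttgg
Huwe1, chrX:148369931-148369960, plus strand: atttAATAAAaaatttagttagaaaaacaa
St3gal3, chr4:117604759-117604788, minus strand: cggaagcAATAAAgctctcctctgaatctg
Nuak1, chr10:83833650-83833679, minus strand: tttaaattaAATAAAttgcaacaaactgaa
Dennd4a, chr9:64767445-64767474, plus strand: tttaggcAATAAAtacttatttttacttca
Flna, chrX:71468800-71468829, minus strand: AATAAAattttgcttccgttgtcctgtgaa
Uchl1, chr5:67078443-67078472, plus strand: gaagAATAAAactttgctggtgagagtatc
Syp, chrX:7230353-7230382, plus strand: ccccccAATAAActcctcaactatctagtc

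The second set gives the 200 bases that follow the annotated end, inside the member region and outside every annotated exon, with runs of at least GGG in capitals. It holds 2 members called in no siScramble library, Crip1 and Ldb1, and 2 members called in every siScramble library and missing from 1 or both other groups, St3gal3 and Rprd2.

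Crip1, chr12:114392089-114392288, plus strand: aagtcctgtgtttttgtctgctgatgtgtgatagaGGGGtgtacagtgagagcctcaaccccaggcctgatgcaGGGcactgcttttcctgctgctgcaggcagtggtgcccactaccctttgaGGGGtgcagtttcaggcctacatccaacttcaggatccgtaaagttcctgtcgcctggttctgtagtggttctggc
Ldb1, chr19:46106883-46107082, minus strand: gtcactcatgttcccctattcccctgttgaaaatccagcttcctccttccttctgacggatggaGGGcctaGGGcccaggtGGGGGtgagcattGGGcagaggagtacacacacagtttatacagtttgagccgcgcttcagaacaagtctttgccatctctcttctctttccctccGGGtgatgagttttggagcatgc
St3gal3, chr4:117604559-117604758, minus strand: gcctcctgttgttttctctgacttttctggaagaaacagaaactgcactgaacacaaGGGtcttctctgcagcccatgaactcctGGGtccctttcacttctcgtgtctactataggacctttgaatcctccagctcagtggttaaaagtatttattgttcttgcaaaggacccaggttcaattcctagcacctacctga
Rprd2, chr3:95563596-95563795, minus strand: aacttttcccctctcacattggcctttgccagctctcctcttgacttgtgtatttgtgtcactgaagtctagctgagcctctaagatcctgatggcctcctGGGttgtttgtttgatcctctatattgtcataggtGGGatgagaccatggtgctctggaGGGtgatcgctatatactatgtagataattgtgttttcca

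These windows hold 3, 5, 2 and 3 G runs. The signal AATAAA lay in the last 50 bases of 884 of 1513 gene ends with a member (58.4%) and of 11065 of 18954 gene ends in all (58.4%), counting only ends more than 1 kb from every transcript start. The weaker signal ATTAAA, without AATAAA, was present at 15.1% and 12.9%. In the 500 bases after the end, GGGG on the gene strand was found at 78.1% of ends with a member and at 71.0% of all ends, and CCCC, which is GGGG on the other strand, at 72.2% and 67.7%. Median GC content of those 500 bases was 47.4% at ends with a member and 44.8% at all ends. G over C skew on the gene strand was small in both, with medians of 0.028 and 0.022. Ends with a member thus had more GC than all ends and more often a G run, on either strand. The main signal was as frequent as elsewhere. Median GC of the regions themselves was 48.2% for gene-end regions, 49.2% for exon and 52.8% for promoter regions. It was 46.8% for intergenic and 46.3% for intron regions. Whether the G runs go beyond the GC content was not tested. These are descriptions without a test.

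The 1666 regions lay at 1565 genes, which is 6.99% of 22380 protein-coding genes, and 101 genes had more than 1 region. Of the regions, 140 lay within 1 kb of several gene ends and are given under the nearest. The median width of the members was 849 bases, with quartiles at 535 and 1434, and together they covered 1.86 Mb. Midpoints were spread almost evenly around the end: 773 (46.4%, exact 95% interval 44.0 to 48.8%) lay beyond it, 577 (34.6%) in the 3′ UTR, 159 (9.54%) in an intron and 156 (9.36%) in a coding or upstream exon. The end itself was spanned by 825 regions (49.5%), while 367 lay wholly beyond it and 474 (28.5%) wholly before it. The share beyond the end was 44.4 to 50.9% among the members called in each of the 9 libraries. By number of calls it was 47.6% for 2 or 3 calls, 45.2% for 4 to 6 and 45.1% for 7 or 8. Regions called more often were wider, with median widths of 570, 1133 and 2030 bases in these classes.

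Many edges coincided with the digest that preceded the pull-down. In 67.6% of gene-end regions at least 1 edge fell precisely where a restriction enzyme of the 5 used cuts, against 0.240% when edges were moved by 300 bases. The other variable regions were alike, at 62.3% for intron, 64.5% for exon, 64.7% for intergenic and 70.3% for promoter regions. Both edges lay on a cut in 10.6% of gene-end regions, and in 28.5% of those called in 7 or 8 libraries. In the other classes both did so in 6.73% (intron) to 13.6% (promoter) of regions. The region at Crip1 runs from cut to cut, as does that at Uchl1. Library DNA was double stranded, so the strand of the RNA, and with it the gene it came from, is unknown.

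Genes with a member often had R-loops at their start as well. Among 1513 such genes, 486 (32.1%) had a promoter region called in 9 of 9 libraries, against 3235 of 18964 (17.1%) of all genes whose end lay clear of transcript starts. No promoter region was called at 339 (22.4%) of them, against 11328 (59.7%) of all, a description without a test. Ends that face the end of another protein-coding gene on the other strand within 2 kb made up 18.6% of the ends with a member (282) and 13.1% of all (2492). Median gene length was close, at 20.2 kb and 19.3 kb. By chromosome, the share of ends with a member ran from 2.11% on chromosome X to 11.3% on chromosome 11, leaving out chromosome Y with 15 ends and no member.

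Peak coverage was then followed across 11482 gene ends that lay more than 4 kb from every transcript start, in genes of at least 6 kb, with no use of the number of calls. At the end itself a peak covered 6.61% ± 1.55 of gene ends in untreated libraries (SD, n = 9). Coverage was 7.31% ± 1.80 at 1 kb before the end, 5.80% ± 1.46 at 1 kb beyond and 4.38% ± 1.15 at 3 kb beyond (SD, n = 9 each). Coverage declined across the end without a peak on it, and its highest point lay between −2300 and −1400 bases from the end in the 9 libraries. The ratio of coverage 1 kb beyond to 1 kb before averaged 0.802 ± 0.0184 for siScramble libraries, 0.804 ± 0.00726 for siDDX1 libraries and 0.772 ± 0.00749 for siEXOSC3 libraries (SD, n = 3 each), and these ratios were not tested.

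**Figure D1:**
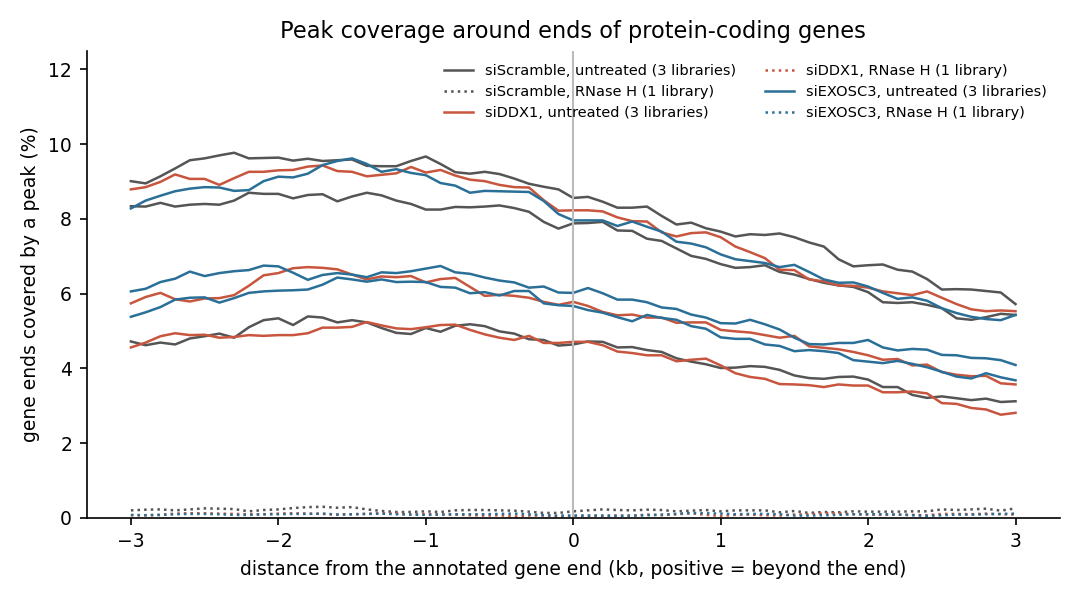
Percent of 11482 gene ends covered by a peak (vertical axis) at each distance from the annotated end in kb (horizontal axis, positive values beyond the end), 1 line per library, solid for the 9 untreated and dotted for the 3 RNase H libraries. Solid lines fall from the gene body across the end, from 7.31% on the mean at 1 kb before to 5.80% at 1 kb beyond, and dotted lines stay at or under 0.296% throughout.

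Libraries digested with RNase H were compared with untreated ones by the share of their peaks at gene ends. Those titled siScramble, siDDX1 and siEXOSC3 held 8034, 3918 and 3811 peaks in all. The share is a part of each library's peaks and does not itself measure signal at gene ends. Shares of other classes were not set beside it. Gene ends held 6.23 to 7.67% of the peaks of the 9 untreated libraries, with a mean of 7.07% ± 0.503 (SD, n = 9), and 1.64, 1.58 and 1.76% of the peaks of the RNase H libraries titled siScramble, siDDX1 and siEXOSC3. The groups of values did not overlap. This share takes single peaks by position alone and is independent of the number of calls. Averaged over the 3 groups it fell by 5.41 percentage points (two-sided exact permutation p = 0.0156, the smallest that 64 assignments can give). In the profile, RNase H libraries covered 0.0958% ± 0.0680 of gene ends at the end itself (SD, n = 3).

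Of the gene-end regions, 29 (1.74%) overlapped a peak of any RNase H library, against 3.10% of all variable regions. Because members had to have untreated calls, these counts are a description. Overlap with at least 2 RNase H libraries was seen for 19 members (1.14%), against 2.04% of all variable regions, and overlap with 3 of 3 for 6 (0.360%), against 1.41%. The 6 lay at Rad50, a DNA double-strand break repair protein, Usp22, a deubiquitinase of the SAGA complex, Mrps36, A1cf, Dctn5 and Gm10721. Their untreated calls ranged from 2 libraries at Mrps36 to 8 at Dctn5 and Gm10721.

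The number of gene-end regions called did not separate the groups. Libraries titled siScramble called 382, 977 and 1083 members, those titled siDDX1 called 1029, 377 and 594, and those titled siEXOSC3 called 637, 671 and 1125. The lowest and highest values of the groups overlap widely. The mean share of members called was 48.9% ± 22.7 for siScramble, 40.0% ± 19.9 for siDDX1 and 48.7% ± 16.4 for siEXOSC3 (SD, n = 3 each). Across the groups the exact permutation p was 0.825 and the adjusted p 0.825 over 3 tests. The difference was −8.84 percentage points for siDDX1 minus siScramble (two-sided exact permutation p = 0.700), −0.180 for siEXOSC3 minus siScramble (exact p = 1.00) and 8.66 for siEXOSC3 minus siDDX1 (exact p = 0.500). Adjusted over these 3 pairs every p was 1.00, and none under 0.1 is possible. With single libraries left out, the first difference ran from −21.8 (without siScramble replicate 1) to −0.150 (without siDDX1 replicate 2). The second ran from −13.1 (without siScramble replicate 1) to 7.89 (without siScramble replicate 3), and the third from −0.760 (without siEXOSC3 replicate 3) to 19.5 (without siDDX1 replicate 1).

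Libraries differed in how many peaks they held, from 23882 to 42571 among the untreated ones, with siScramble replicate 1 and siDDX1 replicate 2 the lowest. Read counts were not at hand, so a background level, solved from fold enrichment and p-value, stood in for sequencing depth. Relative to the untreated mean this level was 0.785 to 1.02 in 8 libraries and 1.86 in siDDX1 replicate 1. Its part in the number of calls was not tested. In the RNase H libraries it was 1.62 to 2.30.

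Set against other variable regions, gene-end regions were called slightly more often in siEXOSC3 libraries and slightly less often in siDDX1 libraries. The share of gene-end regions called was itself alike in siScramble (48.9%) and siEXOSC3 (48.7%). That of other variable regions was 46.7% in siScramble, 40.9% in siDDX1 and 43.0% in siEXOSC3. The percent of members called divided by the percent of all other variable regions called was 0.984, 1.07 and 1.05 in siScramble replicates 1 to 3. It was 0.979, 0.974 and 0.977 in siDDX1, and 1.17, 1.07 and 1.15 in siEXOSC3. All 3 siDDX1 values lay below all others, and the lowest siEXOSC3 value overlapped siScramble. The group means were 1.03 ± 0.0451, 0.977 ± 0.00249 and 1.13 ± 0.0563 (SD, n = 3 each). On log2 ratios over 280 assignments the exact permutation p was 0.0107 (adjusted p = 0.0321 over 3 tests). Labels moved only within a replicate number, a replicate block, gave an exact permutation p = 0.0833, where 0.0278 is the smallest possible. With peaks of −log10 q of at least 5 the exact permutation p was 0.125, and with the same number of peaks from each library it was 0.146, so the call was lost in each. It was also lost with midpoints within 500 bases of the end (exact permutation p = 0.0821). Between pairs of groups, the log2 ratio of siEXOSC3 minus siDDX1 was 0.21 and that of siDDX1 minus siScramble −0.08 (two-sided exact permutation p = 0.1 for each, the smallest possible, adjusted p = 0.150 over 3 pairs), and that of siEXOSC3 minus siScramble was 0.13 (exact p = 0.200, adjusted p = 0.200).

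**Figure D2:**
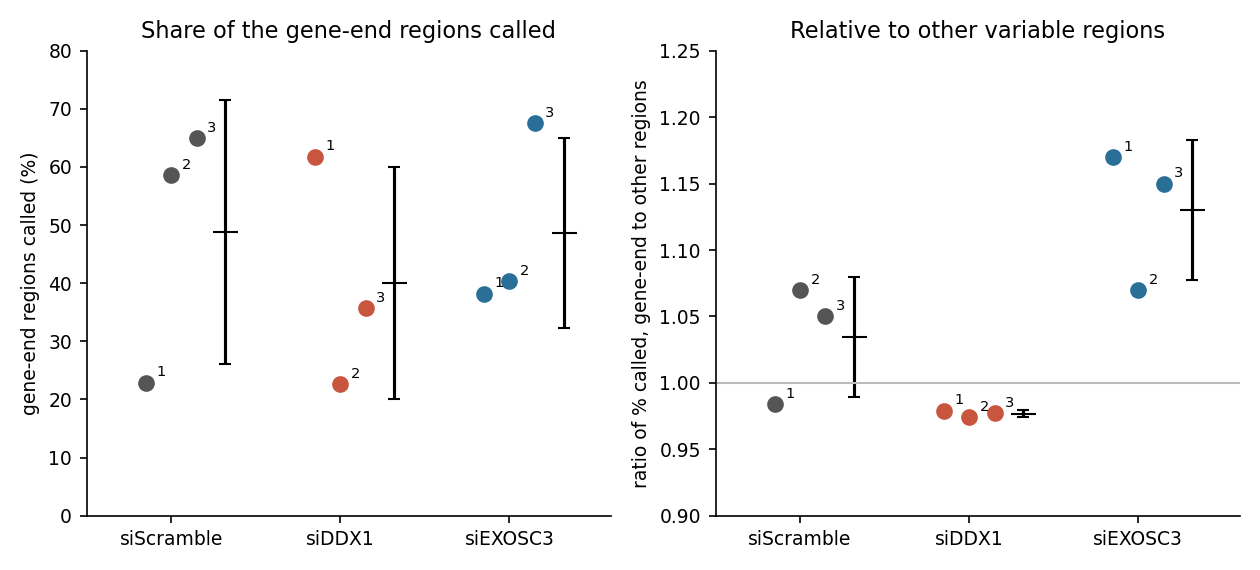
Left, percent of the 1666 gene-end regions called in each untreated library; right, that percent divided by the percent of all other variable regions called, with a line at equal shares. Points are libraries marked with their replicate number, and the black bar beside each group is the mean with SD (n = 3). On the left the 9 libraries span 22.6 to 67.5%, and the ranges of all 3 groups share 38.2 to 61.8%, and on the right siDDX1 lies at 0.974 to 0.979, below the siEXOSC3 values of 1.07 to 1.17.

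Taken class by class, the groups lay farthest apart against introns. Gene-end regions were called 1.05 ± 0.0292 times as often as variable intron regions in siScramble, 0.958 ± 0.0343 times in siDDX1 and 1.30 ± 0.121 times in siEXOSC3 (SD, n = 3 each). The exact permutation p was 0.00357, the smallest that 280 assignments can give. Against promoter regions the means were 1.01, 0.987 and 0.867 (exact permutation p = 0.207), against exon regions 1.00, 0.957 and 1.07 (exact p = 0.121), and against intergenic regions 1.03, 1.08 and 1.10 (exact p = 0.754). In siEXOSC3 libraries 38.1% ± 14.6 of intron regions, 48.7% ± 16.4 of gene-end regions and 55.3% ± 12.1 of promoter regions were called (SD, n = 3 each). In the same order the shares were 46.4% ± 21.5, 48.9% ± 22.7 and 47.1% ± 18.9 in siScramble libraries. In siDDX1 libraries they were 41.3% ± 19.1, 40.0% ± 19.9 and 41.6% ± 23.9. These 4 comparisons by class were chosen after the result over all regions was known. Peak names would make siScramble the group with the high ratio.

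**Figure D3:**
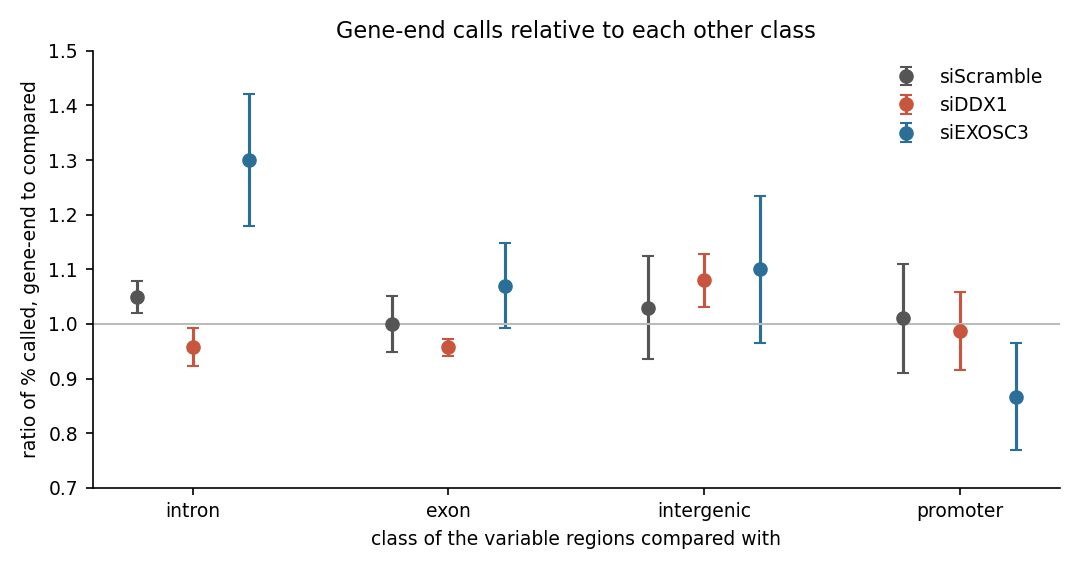
Percent of gene-end regions called divided by the percent of variable intron, exon, intergenic or promoter regions called (vertical axis, 1 for equal shares), as mean and SD over 3 libraries for each group. The siEXOSC3 mean stands at 1.30 against introns and at 0.867 against promoters, while the siDDX1 mean lies between 0.957 and 1.08 in all 4 classes.

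With all peaks used, gene-end calls were shared to a like extent inside and across groups. The Jaccard index, the members called in both libraries over those called in either, averaged 0.350 over 9 pairs within groups and 0.336 over 27 pairs between groups (one-sided exact permutation p = 0.193, adjusted p = 0.289 over 3 tests). Among siScramble libraries it averaged 0.358, among siDDX1 libraries 0.303 and among siEXOSC3 libraries 0.388. With the same number of peaks from each library the index averaged 0.389 within and 0.353 between groups. The difference rose from 0.0135 to 0.0364 (one-sided exact permutation p = 0.00357, the smallest that 280 assignments can give). With all peaks but without siDDX1 replicate 1 the difference was 0.0482 (one-sided exact permutation p = 0.0429). It turned to −0.00347 without siEXOSC3 replicate 1 and to −0.00296 without siEXOSC3 replicate 2.

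Fold enrichment over the local background, as the peak caller gives it, was compared between classes within each library. The median over called members was 5.34, 5.57 and 5.42 in siScramble, 5.24, 4.92 and 5.35 in siDDX1 and 5.23, 5.13 and 6.43 in siEXOSC3. Gene-end medians were higher than those of variable intron regions in 7 libraries, equal in 2 and lower in 0, by 0.05 ± 0.05 on the log2 scale (SD, n = 9, two-sided exact sign-flip permutation p = 0.0156, adjusted p = 0.0469 over 3 classes). This is a ratio of 1.04. The call was lost with −log10 q of at least 5 (exact permutation p = 0.0625) and with the same number of peaks per library (exact p = 0.125). Against intergenic regions (exact permutation p = 0.875, adjusted p = 0.875) and promoter regions (exact p = 0.500, adjusted p = 0.750) they were higher in 2, equal in 5 and lower in 2 libraries. Where the peaks of a library had to cover at least 0.5 of a region, both became calls, with gene-end medians higher than intergenic ones by 0.0844 (exact permutation p = 0.00781) and lower than promoter ones (−0.0763, exact p = 0.00391) on the log2 scale.

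Members present in 1 group and absent from another were few. The third group could hold calls or none, so "only" here refers to the pair of groups compared. Every siDDX1 but no siScramble library called 9 members (0.540%), against 0.456% of all variable regions, and 20 were called the opposite way, against 0.919%. For siEXOSC3 and siScramble there were 21 (1.26%) called only in siEXOSC3, against 1.24%, and 18 (1.08%) called only in siScramble, against 1.17%. For siEXOSC3 and siDDX1 there were 20 called only in siEXOSC3, against 1.15%, and 6 (0.360%) called only in siDDX1, against 0.896%. Shares of members lay near those of all regions, apart from the last count, which rests on 6 regions. With siScramble replicate 1 left out, only the remaining siScramble libraries had to call a region, which is an easier rule. The regions called in siScramble and not in the other group then numbered 115 against siDDX1 and 100 against siEXOSC3. No single region can pass a threshold of 0.05 in an exact test of 3 libraries against 3.

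**Figure D4:**
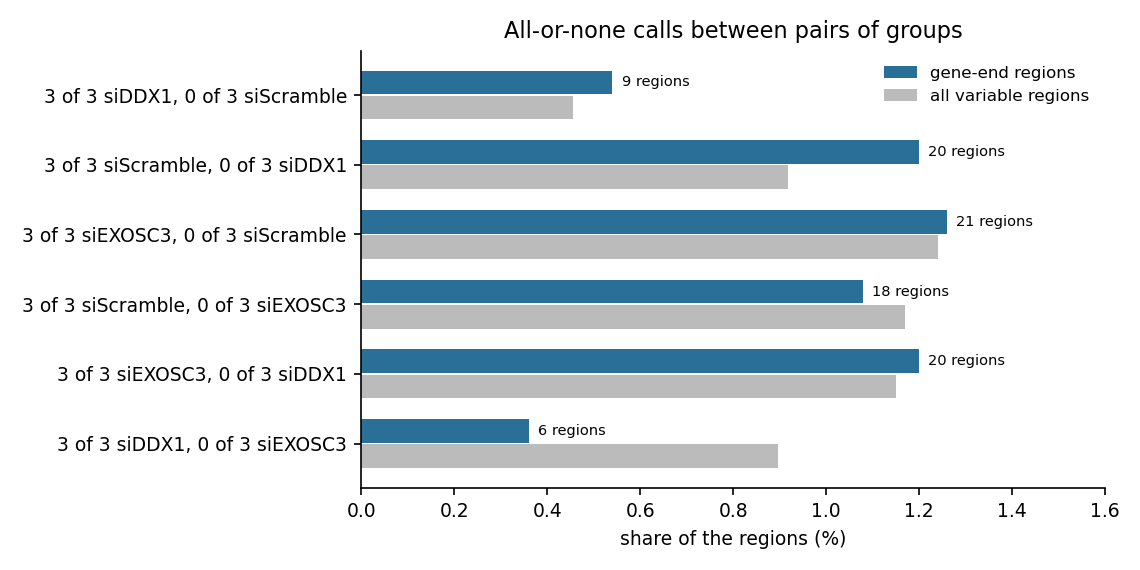
Share of the 1666 gene-end regions (blue, with their number) and of the 30478 variable regions (grey) called by all 3 libraries of 1 group and none of another, in percent. The blue and grey bars lie widest apart in the last comparison, where 6 gene-end regions (0.360%) were called in siDDX1 and not in siEXOSC3, against 0.896%.

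Gains in both depletions by title were led by Crip1, which encodes a small cysteine-rich LIM domain protein. Its region (chr12:114390483-114393673) spans the end and reaches 1585 bases beyond it. No siScramble library called it, while fold enrichment was 5.67, 4.92 and 5.83 in siDDX1 and 6.83, 7.34 and 9.01 in siEXOSC3. Every siEXOSC3 value lay above every siDDX1 value. Just beyond A430105I19Rik (chr2:118579260-118579644) a region was likewise called in no siScramble library, with 6.54, 4.92 and 6.48 in siDDX1 and 5.59, 7.95 and 7.08 in siEXOSC3. Adora2a, an adenosine receptor, had a region across its end (chr10:74796900-74798562) with 3.10, 4.64 and 5.84 in siDDX1 and 4.32, 5.86 and 6.56 in siEXOSC3. At Scrn2 the values were 3.49, 3.69 and 4.53, and 6.21, 5.50 and 3.86. In all, 22 members (1.32%) had at least 2 calls in each depletion and none in siScramble, against 1.01% of all variable regions. The count was 8 without siDDX1 replicate 1, where both remaining siDDX1 libraries had to call a region. It was 47 without siScramble replicate 3, where fewer siScramble libraries had to lack a call.

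Losses in both depletions by title numbered 74 members (4.44%), called in at least 2 siScramble libraries and in no other, against 4.43% of all variable regions. Without siScramble replicate 3, where both remaining siScramble libraries had to call a region, the count was 13. Rprd2, a protein that binds the RNA polymerase II C-terminal domain, had a region over its end (chr3:95562720-95564306) with 5.27, 5.57 and 5.42 in siScramble and no peak elsewhere. Regions of Snx3, a sorting nexin, held 5.06, 5.92 and 6.82, those of Nipbl, the cohesin loader, 5.34, 5.21 and 5.50, and those of Dennd4a 5.27, 4.95 and 5.40. All 4 were moderate peaks, with a mean percentile of fold enrichment within their libraries of 36.9 to 50.8. By the peak names, these 74 regions would be the ones called in siDDX1 only.

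Only 1 depletion stood apart at other ends. Huwe1, an E3 ubiquitin ligase, had a region across its end (chrX:148369507-148370807) with 6.45, 4.95 and 7.23 in siScramble, none in siDDX1, and 7.95 and 7.08 in siEXOSC3 replicates 2 and 3. Hjurp, the chaperone of the centromeric histone CENP-A, had values of 6.30, 3.95 and 8.30 in siScramble and of 5.04, 4.32 and 7.68 in siEXOSC3, and again no peak in siDDX1. Utp3, a nucleolar factor of ribosomal RNA processing, had 7.03, 5.88 and 8.00 in siScramble, and 4.35 and 8.85 in siEXOSC3 replicates 1 and 3. St3gal3, a sialyltransferase, had a region centred 4 bases beyond its end (chr4:117603963-117605547) with 6.45, 5.57 and 10.8 in siScramble, 6.54, 4.30 and 5.83 in siDDX1 and none in siEXOSC3. The calls at Huwe1, Hjurp and Utp3 are missing from the siDDX1 group alone, and that at St3gal3 from the siEXOSC3 group alone.

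Gigyf2, a repressor of translation, was called in 3 siDDX1 libraries at 4.32, 5.53 and 4.53, in siScramble replicates 2 and 3 at 4.81 and 6.53, and in no siEXOSC3 library. Ldb1, a LIM domain-binding cofactor, was called in no siScramble library in siDDX1 replicates 1 and 3 at 5.67 and 5.17, and in 3 siEXOSC3 libraries at 4.35, 7.95 and 9.65. Nuak1, an AMPK-related kinase, had 5.34, 7.34 and 7.59 in siEXOSC3, 5.67 in siDDX1 replicate 1 and no call in siScramble. Il12rb2, a subunit of the interleukin-12 receptor, had 7.42, 5.21 and 12.2 in siEXOSC3 and 11.4 in siScramble replicate 3. Members at Gm14409 and Gm14295 lie among zinc finger genes of chromosome 2 that resemble each other closely, so their reads may be shared and their calls are uncertain.

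**Figure D5:**
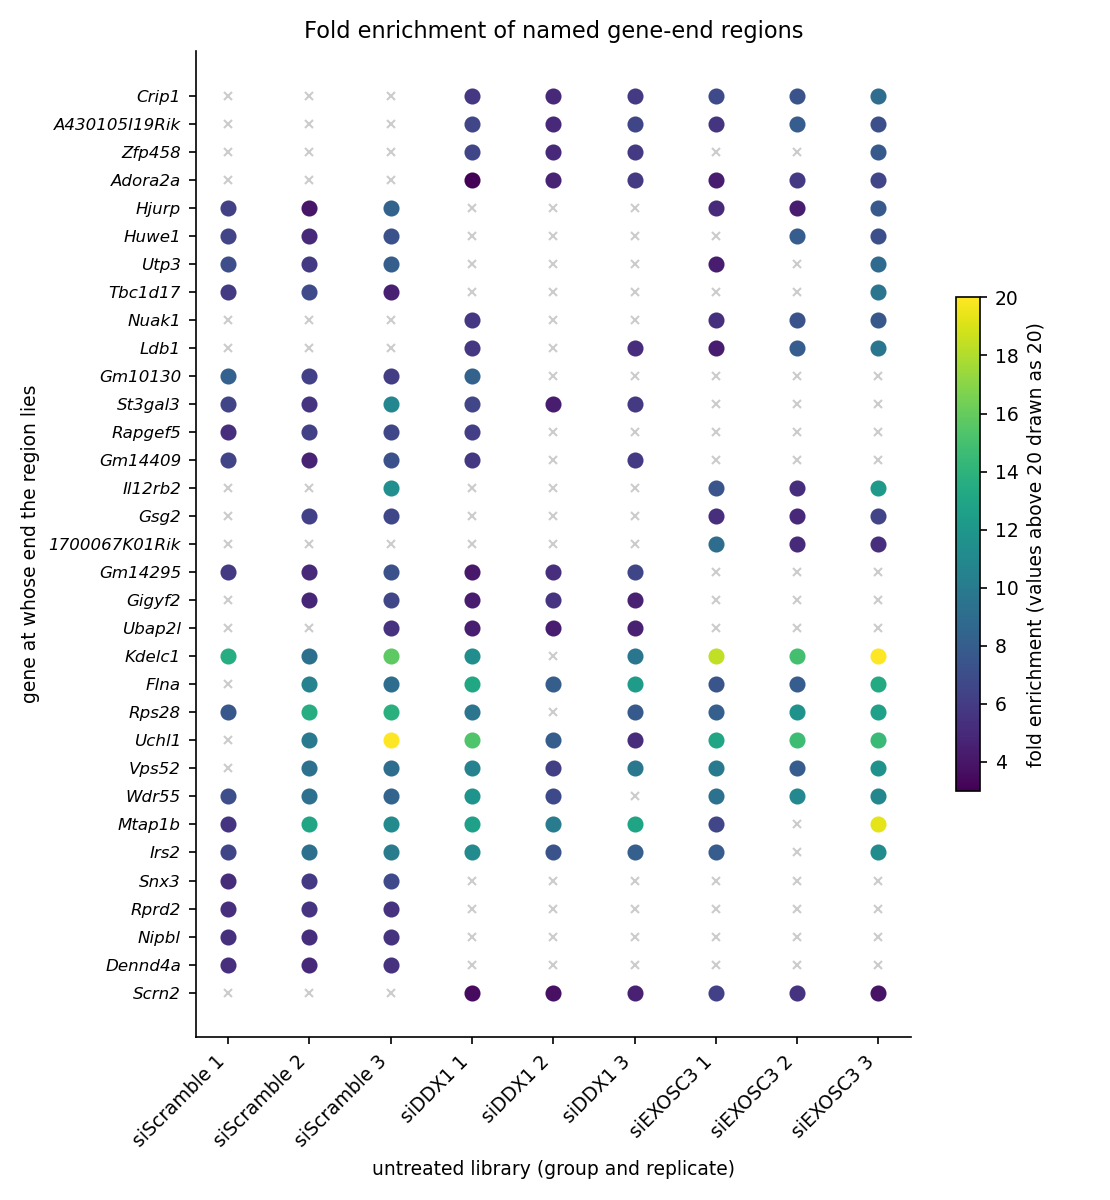
Fold enrichment (colour scale from 3 to 20, higher values drawn as 20) of 33 gene-end regions (rows, named by gene) in the 9 untreated libraries (columns), with a grey cross where a library had no peak. The upper rows show regions missing from whole groups, the rows from Kdelc1 to Irs2 those called in 8 of 9 libraries, where values reach 26.2, and the rows from Snx3 to Scrn2 those lost or gained in both depletions.

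The 8 members with the highest mean percentile of fold enrichment among those called in 8 of 9 libraries lay at Kdelc1, Flna, Rps28, Uchl1, Vps52, Wdr55, Mtap1b and Irs2. Kdelc1, which encodes a glucosyltransferase of the endoplasmic reticulum, had a region beyond its end (chr1:44147311-44147954) with 13.5, 9.18 and 15.8 in siScramble, 11.3 and 9.65 in siDDX1 replicates 1 and 3, and 18.4, 14.9 and 26.2 in siEXOSC3. Uchl1, an abundant neuronal deubiquitinase, had 9.91 and 22.9 in siScramble replicates 2 and 3, 15.3, 7.99 and 5.18 in siDDX1, and 13.0, 14.7 and 14.5 in siEXOSC3. Its region (chr5:67078103-67080404) reaches 1932 bases past the end. Flna, the actin crosslinker filamin A, ran from 7.46 to 13.3 over its 8 libraries and Rps28, a small-subunit ribosomal protein, from 7.61 to 13.8. Mtap1b, a microtubule-associated protein of growing axons, ran from 5.59 to 19.3, and Irs2, an insulin receptor substrate, from 6.49 to 11.2. Vps52, a subunit of a vesicle tethering complex, ran from 6.15 to 11.6 and Wdr55 from 6.76 to 11.8. The library without a call was siScramble replicate 1 for Flna, Uchl1 and Vps52, siDDX1 replicate 2 for Kdelc1 and Rps28, siDDX1 replicate 3 for Wdr55, and siEXOSC3 replicate 2 for Mtap1b and Irs2.

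Gene groups were set against the 6.99% of all protein-coding genes with a member. Among 67 hnRNP and splicing genes 15 (22.4%) had one, among 24 exosome subunits and cofactors 4 (16.7%), among 53 protein folding and stress genes 8 (15.1%) and among 33 genes of R-loop enzymes 4 (12.1%). The share was 9.09% for axon guidance and neuronal development (8 of 88), 7.14% for 3′ end processing and termination (3 of 42) and 6.67% for ribosomal proteins (5 of 75). These shares are a description without a test, and how strongly the genes are transcribed was not considered. Of genes whose end lay more than 1 kb from every transcript start, 7.98% had a member. Splicing genes had 17 members, of which 11 were called in at least 2 of 3 siScramble, 5 in at least 2 of 3 siDDX1 and 4 in at least 2 of 3 siEXOSC3 libraries. Over all 1666 members these counts were 798, 587 and 758.

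Splicing factors carried members of very different reach. Snrpd2, a core spliceosomal Sm protein, was called in 8 libraries at 4.53 to 8.67. Sf3b2, an SF3b subunit of the U2 particle, was called in 7 libraries at 3.73 to 7.72 and Sf3b3 in 6 at 5.26 to 10.0. Hnrnpd, an AU-rich element binding protein, had 5.86, 9.29 and 7.23 in siScramble, 4.30 in siDDX1 replicate 2 and 5.50 in siEXOSC3 replicate 2. Sf3a1 and Hnrnpf had no call in siDDX1 and 1 each in siEXOSC3. The other way, a region at Hnrnpm (chr17:33782973-33783499) had no call in siScramble, 2 in siDDX1 and 1 in siEXOSC3. A further Hnrnpm region had 2, 1 and 1. Celf4, a neuronal splicing regulator, was called in 3 siScramble libraries at 6.45, 6.02 and 9.04, in 3 siDDX1 libraries at 6.98, 7.99 and 8.42 and in siEXOSC3 replicate 3 at 10.9.

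Members of the exosome list included Exosc5, a subunit of the exosome ring. Its region (chr7:26453289-26453550) was called in siEXOSC3 libraries only, at 4.23, 4.28 and 5.34, and its width of 262 bases lies next to the lowest of all members, 261 bases. Mphosph6, an exosome cofactor of ribosomal RNA maturation, was called in 8 libraries at 3.87 to 6.88. Zcchc7, a zinc knuckle protein of the TRAMP complex, ran from 5.15 to 11.5 in 6 libraries, and Dis3, the catalytic nuclease, had 1 call in each group. Of the R-loop enzymes, Rnaseh1, which digests the RNA of hybrids, was called in 2 libraries of each group at 4.36 to 7.00, as was Thoc5, a THO export subunit, at 5.22 to 6.19. Top3b had 1 call in each group. Of the 3′ end processing factors, Cpsf4, a subunit of the cleavage and polyadenylation complex, was called in 5 libraries at 4.80 to 8.08, and Nudt21 and Ints7 in 2 each.

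Among chaperones, Dnaja1, an HSP40 co-chaperone, had 6.69 and 5.00 in siScramble replicates 2 and 3, 6.79 in siDDX1 replicate 1 and 6.10, 6.60 and 8.22 in siEXOSC3, and these ranges overlap. Bag1, an HSP70 nucleotide exchange factor, had 8.05 and 6.03 in siScramble replicates 2 and 3, 4.46, 4.73 and 5.83 in siDDX1 and 5.34 in siEXOSC3 replicate 3. Fkbp4, an HSP90 co-chaperone, had 4.10, 4.34 and 4.20 in siScramble, none in siDDX1, and 6.21 and 6.95 in siEXOSC3 replicates 1 and 3. Of the 9 neuronal members, those called in at least 7 libraries were at Dpysl2, a collapsin response mediator, at 5.27 to 14.2 in 8 libraries, Ncam1, a neural adhesion molecule, at 4.89 to 10.9 in 8, Alk, a receptor tyrosine kinase, at 3.73 to 7.43 in 8, and Syp, the synaptic vesicle protein synaptophysin, at 4.89 to 8.79 in 7. The members at Plxna3, Plxnd1, Sema6b and Tubb3 were called in 2 or 3 libraries. Tubb3, neuronal tubulin, was called in siEXOSC3 replicates 1 and 3 only, at 3.23 and 4.57. Rpl23, a large-subunit ribosomal protein, was called in 8 libraries at 3.25 to 18.1, the highest in siDDX1 replicate 1. Ensa, a gene used in work on terminator R-loops, had a member with 5.88 in siScramble replicate 2 and 6.21 in siDDX1 replicate 3.

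Values on either side of each limit of the choice lay close together. The farthest member midpoint lay 1000 bases from the end of Gm340 and the nearest region outside 1001 bases from that of B3gnt9-ps. The widest member, at Lrwd1, was 4973 bases and the narrowest region left out, at Nudc, 5081 bases. Nearest to a transcript start inside was the midpoint of the member at Tmem109, 1003 bases away, and outside that of the region at B9d2, 998 bases away. A further 1446 narrow gene-end regions were called in 1 library, 410 in 9 of 9, and 264 were 5000 bases or wider.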

How the data were processed

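Peaks came from N2a cells after DRIP with the S9.6 antibody. Per the study's methods, the authors cut genomic DNA with 5 restriction enzymes, aligned reads to mm9 with Bowtie2 2.4.4 and called peaks per library with MACS2 2.2.6 against an input library, without pooling. The deposited lists give positions, the fold enrichment over local background as a linear ratio, and −log10 p-values and −log10 q-values. The 12 lists were used, and the 1 input sample was not analysed here. Read counts were not used here, so the study's DESeq2 test was not run.

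Overlapping or touching peaks of the 9 untreated libraries were merged and classed by midpoint with GENCODE vM1 (Python 3.11.15, numpy 2.4.6, scipy 1.17.1, pandas 2.3.3). A call needs 1 base of overlap. Members and gene lists were chosen with earlier results of these data known. Named genes are the all-or-none members with the highest mean percentile of −log10 q (4 per direction), the 8 members called in 8 libraries with the highest mean percentile of fold enrichment, members of 8 gene lists, 4 lost and 4 gained in both depletions, those overlapping at least 2 RNase H libraries, and those nearest each limit. Not all are printed. The relative background level was solved from each peak's enrichment and p-value, and the exact binomial interval covers counting error only. Groups were compared by exact permutation over 280 (3 groups), 20 (pairs) or 64 (RNase H) assignments, and classes by sign flips over 512, with Benjamini-Hochberg adjustment. The labels number the replicates, and the study's methods describe separate plates per condition as biological replicates. Region by region, calls of same-numbered libraries did not deviate together from their group means (correlations −0.0668 to 0.0681 over 9 pairs). These correlations leave out any shift of a whole library, so they cannot decide whether the numbers pair libraries. Code was tested on simulated data.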

Additional observations from a re-analysis of the deposited data

How the results depend on the processing

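Alternatives used peaks with −log10 q of at least 5, an equal number of peaks per library, merging over 200 bases, cover of at least 0.5 of a region, midpoints within 500 bases of the end, and each library left out. Comparisons with single classes, and leaving out both libraries with the fewest peaks, were chosen after seeing the data. The share of peaks at gene ends fell with RNase H under every alternative run, a difference of −6.26 to −2.96 percentage points. The F value of relative calls (10.8) was 3.17 at q of at least 5, 3.26 with equal peak numbers, 5.13 within 500 bases, 3.20 against exons, 2.24 against promoters and 0.315 against intergenic regions, none of them past the threshold of 0.05. It was 11.8 with the replicate block (exact permutation p = 0.0833). Region by region, calls of same-numbered libraries did not deviate together (correlations −0.0668 to 0.0681, against −0.0748 to 0.0630 for other numbers). These correlations leave out shifts of a whole library and do not set the block aside. No other result run with the block was a call with or without it. For pairs of groups the block cannot give an exact permutation p under 0.250. The RNase H and fold enrichment comparisons were not run with it. The difference siDDX1 minus siScramble was −21.8 to −0.150 points with single libraries left out. The difference siEXOSC3 minus siScramble was 0.917 points with equal peak numbers and −13.1 to 7.89 with single libraries left out, and siEXOSC3 minus siDDX1 was −0.760 to 19.5. The Jaccard difference was 0.0364 with equal peak numbers and −0.00347 to 0.0482 with libraries left out. The log2 difference in fold enrichment against introns was 0.0410 at q of at least 5 and 0.0212 with equal peak numbers. Against intergenic regions it was −0.00104 with equal peak numbers, 0.0844 with that cover (exact permutation p = 0.00781, a call where there was none) and −0.00634 to 0.0114 with libraries left out, and against promoters −0.0763 with that cover (exact permutation p = 0.00391, likewise now a call).

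Counts of regions called in every library of 1 group and in none of another moved as well. With a library left out, these counts ask only for the remaining libraries, so their rule changes too. Counts of regions lost or gained in both then keep their lowest number of calls over fewer libraries. siDDX1 against siScramble gave 0 at q of at least 5, 2 with that cover and 9 to 39 with libraries left out. The opposite gave 12 with that cover, 12 within 500 bases and 20 to 115. siEXOSC3 against siScramble gave 12 at q of at least 5, 12 within 500 bases and 21 to 75, and the opposite 8, 9 and 18 to 100. siEXOSC3 against siDDX1 gave 12, 8 and 20 to 89 in the same order. The opposite gave 1 at q of at least 5, 2 with that cover, 3 within 500 bases and 6 to 38. Regions lost in both numbered 35 at q of at least 5, 35 with equal peak numbers, 33 within 500 bases and 13 to 103, and those gained in both 7 at q of at least 5, 10 with that cover, 12 within 500 bases and 8 to 47. The share beyond the end was 49.3% within 500 bases. Counts with a library left out follow a changed rule, and why the other values moved was not tested.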
